A study of Mus musculus with 27 samples.

Results

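The comparison described here set 3 libraries of Gpx4 knockout (KO) gastric organoids at passage 10 against 3 libraries of wild-type (WT) organoids at the same passage. They are 6 of the 21 libraries in the deposited count table, out of 27 samples described, and were chosen by their genotype and passage labels. The KO organoids came from Gpx4F/F;Mist1Cre/ERT2;RFPLSL mice and the WT organoids from Mist1Cre/ERT2;RFPLSL mice, so both groups carry the Mist1-driven CreERT2 and the RFP reporter, and the labels tell them apart by the floxed Gpx4 allele. The growth label of the KO samples names the line without that allele, while the genotype label and the series design name it, and no label mentions how or when the recombinase was induced. Both were grown from RFP-positive cells, sorted from stomach tissue of adult mice, in Matrigel and a proliferating medium. The labels do not say how many mice, lines or separate cultures the libraries stand for, so the p-values measure the spread between these libraries, which may be technical.

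GPX4 is the selenium-containing glutathione peroxidase that reduces lipid hydroperoxides inside membranes. When it is lost or inhibited, iron-dependent oxidation of polyunsaturated phospholipids can kill the cell by ferroptosis, and cells can be protected by other routes, among them cystine import and glutathione synthesis, ubiquinone and biopterin recycling, and exchange of polyunsaturated for monounsaturated phospholipids. The Mist1 protein, encoded by Bhlha15, controls genes of secretory cells and marks chief cells and some isthmus progenitors of the corpus. Organoids of the corpus epithelium hold mainly proliferating, mucous neck-like and pit-like cells, the pit cell being the short-lived mucus cell of the gastric surface.

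The KO libraries held 15342311, 13805585 and 17883836 gene counts, and the WT libraries 17275802, 15857340 and 19608956. Replicates lay close together. The biological coefficient of variation in the fit was 2.71%, and the first principal component, which separated the genotypes, took 83.8% of the variance of the 1000 most variable genes. Replicates of a group nevertheless differed beyond sampling noise (chi-square per degree of freedom 1.76 to 2.64 over the 6 pairs), so each was counted as its own library. Mitochondrial mRNAs took 3.75% to 3.80% of the counts in KO and 4.58% to 4.64% in WT libraries.

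Gpx4, the targeted gene, was lower in the KO libraries but far from absent. It had 100.3, 97.3 and 87.8 CPM in KO libraries, against 111, 123 and 114 CPM in WT libraries (CPM, gene counts scaled to library size), and the groups did not overlap (log2 fold change -0.29, SE 0.042, adjusted p = 7.28e-09, edgeR quasi-likelihood test with Benjamini-Hochberg adjustment). With all 21 libraries in the fit the adjusted p was 0.094. A count per gene does not show which exons the reads came from, and whether the remaining transcript lacks the floxed exons was not tested. Of the 6 tested genes nearest Gpx4 on chromosome 10, 3 on each side, Abca7, a lipid transporter, fell (log2 fold change -0.44, SE 0.053, adjusted p = 4.22e-12) and Stk11, the kinase LKB1, was called higher by a small margin (log2 fold change 0.15, SE 0.048, adjusted p = 0.00509). The Stk11 call was lost without KO replicate 1 (adjusted p = 0.0928) and with all 21 libraries (adjusted p = 0.197). Arhgap45, Polr2e, Sbno2 and Cbarp did not pass (adjusted p = 0.679, 0.634, 0.55 and 0.348). Bhlha15 itself had 6.14, 5.68 and 5.54 CPM in KO libraries, against 7.04, 6.51 and 6.73 CPM in WT libraries and did not pass (adjusted p = 0.179).

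The difference between the genotypes reached many genes but was under 1.5-fold for most of those called. Of 13957 genes tested, 7551 (54.1%) were called at an adjusted p under 0.05, with 3762 higher (27.0%) and 3789 lower (27.1%) in KO. Scaling by library totals alone moved that split to 4722 higher and 3035 lower. Of the calls, 72.8% were under 1.5-fold. At 2-fold or more 956 genes were called (6.85%), 380 higher (2.72%) and 576 lower (4.13%) in KO. Among genes named below, with all 21 libraries in the fit, the calls for Slc7a11, Fth1, Acsl4, Gch1, Dhodh, B2m, H2-D1, Egfr and Muc4 were lost (adjusted p = 0.0535 for Muc4 to 0.739 for Slc7a11). Because the tests call so much of the table, each group of genes below is to be read against these shares, and its median against 0.002, the median log2 fold change of all genes tested. The shares are repeated below for some groups only. Where libraries of the 2 genotypes are said not to overlap, the share of all tested genes that did the same is not given. Such a statement describes the gene and does not set it apart.

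**Figure D1:**
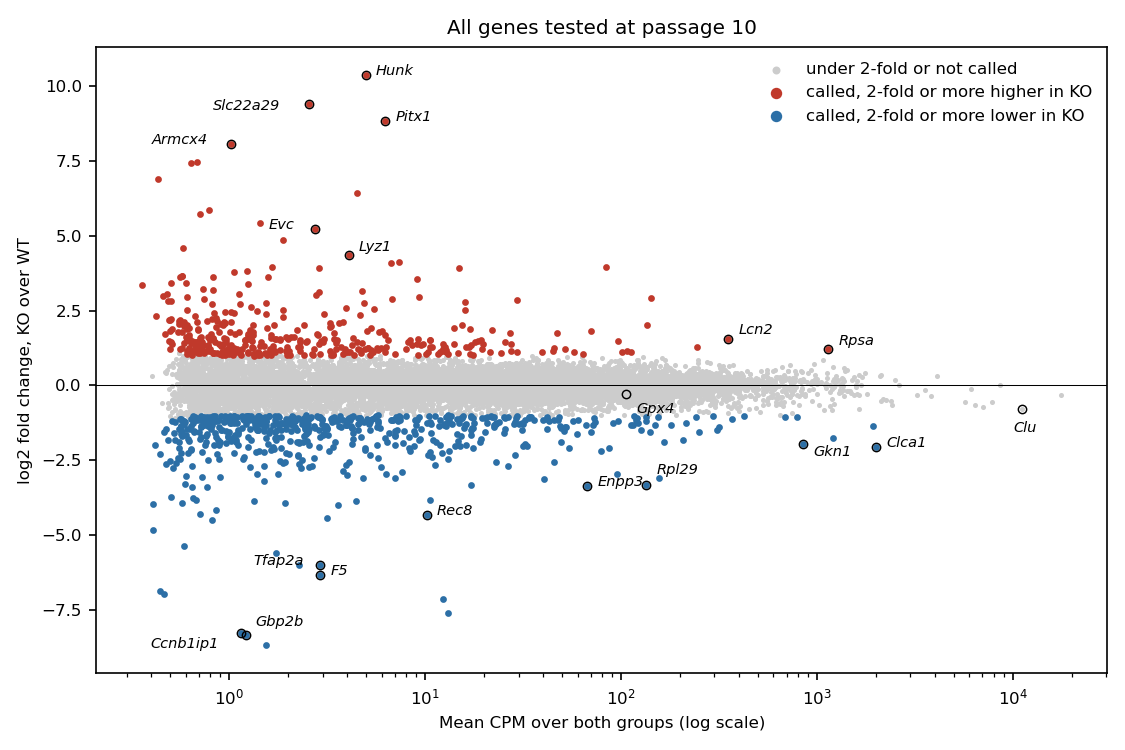
Each dot is one of the 13957 genes tested at passage 10, placed by its mean CPM over the 6 libraries (x axis, log scale) and its log2 fold change, KO over WT (y axis). The 380 red and 576 blue genes, higher and lower in KO by 2-fold or more, lie on both sides of 0, and named genes are circled.

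One chromosome stood apart from the others. Of 496 genes tested on chromosome 19, 57.5% were called higher and 12.5% lower in KO, 70.0% in all. Over its 291 genes at 16 CPM or more, the median log2 ratio to the WT mean was 0.31 in each KO library (0.307, 0.313 and 0.310), against 0.00 in the WT libraries (0.0001, 0.0016 and -0.0024). The shift was even along the chromosome, with medians of 0.305, 0.319, 0.306 and 0.313 in 4 successive blocks of 72 or 73 genes, and 81.4% of the genes were higher in KO. At passage 5 the KO libraries were at 0.0009, -0.0224 and -0.0130, and at passage 15 at 0.0933, 0.0755 and 0.0837. Chromosome 17 moved the other way by less, with 17.0% of its tested genes called higher and 34.4% lower. The pattern was noticed after the values were seen, no DNA was measured, and its cause was not tested. Genes on chromosome 19 are marked as such below, and gene list counts are also given without them where they differ.

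**Figure D2:**
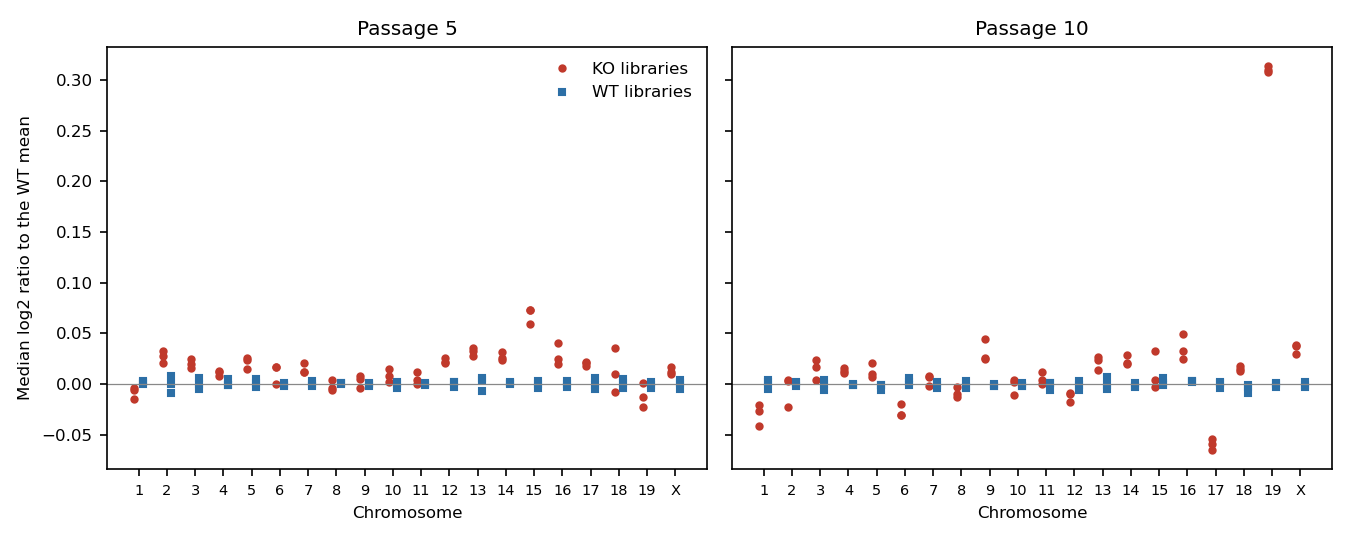
Median log2 ratio to the WT mean over the genes of each chromosome (y axis, chromosomes on the x axis), one point per library, at passage 5 (left) and passage 10 (right), with KO as red circles left of WT as blue squares. At passage 10 the 3 KO libraries lie near 0.31 for chromosome 19 and near 0 for most others.

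Some genes were read in one genotype and not in the other. Hunk, a kinase of the AMPK-related family, had 10.0, 9.65 and 10.1 CPM in KO libraries, against 0 counts in WT libraries and was at least 171-fold higher, the bound being set by 3 counts over the WT group. Armcx4, an X-linked armadillo-repeat gene, had 1.47, 2.2 and 2.41 CPM in KO libraries, against 0 counts in WT libraries and was at least 35.1-fold higher. Slc22a29, an organic anion transporter gene on chromosome 19 that belongs to a cluster of near-identical copies, had 5.18, 4.12 and 5.92 CPM in KO libraries, against 0 counts in WT libraries and was at least 88.5-fold higher. Ccnb1ip1, a ubiquitin ligase of meiotic recombination, went the other way with 0 counts in KO libraries, against 2.07, 2.58 and 2.66 CPM in WT libraries, at least 39.1-fold lower. The interferon-inducible GTPase Gbp2b had 0 counts in KO libraries, against 1.54, 2.38 and 2.97 CPM in WT libraries and was at least 37.2-fold lower; it has near-identical relatives among which reads can be split. These are the 5 protein-coding genes with 0 counts throughout one group and at least 1 CPM in each library of the other.

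The promoters of these 5 genes differ in CpG content, which is why they are shown. Each window runs from 250 bases before to 50 after the annotated start, read 5′ to 3′ on the gene's strand from RefSeq on GRCm38.p6, with every CG dinucleotide in capitals. The median number over 32841 such windows was 7 CG (quartiles 3 and 20). The Hunk window (chr16:90386147-90386446, plus strand) had 41, more than 96.5% of windows. The Armcx4 window (chrX:134686269-134686568, plus strand) had 19 and that of Ccnb1ip1 (chr14:50795679-50795978, minus strand) 13. Those of Slc22a29 (chr19:8218851-8219150, minus strand) and Gbp2b (chr3:142594597-142594896, plus strand) had 1 each, while 85.9% of windows had more. No methylation was measured here.
Hunk: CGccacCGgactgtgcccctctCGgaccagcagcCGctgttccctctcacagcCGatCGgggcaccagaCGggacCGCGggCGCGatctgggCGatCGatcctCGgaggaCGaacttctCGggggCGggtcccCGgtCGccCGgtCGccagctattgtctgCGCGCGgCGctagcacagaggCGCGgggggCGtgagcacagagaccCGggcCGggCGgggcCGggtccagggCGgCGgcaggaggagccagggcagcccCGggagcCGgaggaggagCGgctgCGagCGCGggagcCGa
Armcx4: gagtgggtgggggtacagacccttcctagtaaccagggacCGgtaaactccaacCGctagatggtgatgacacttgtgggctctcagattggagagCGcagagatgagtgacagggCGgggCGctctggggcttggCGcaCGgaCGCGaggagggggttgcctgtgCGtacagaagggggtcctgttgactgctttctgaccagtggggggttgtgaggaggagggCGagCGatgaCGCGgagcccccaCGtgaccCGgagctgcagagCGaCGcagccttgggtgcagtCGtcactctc
Ccnb1ip1: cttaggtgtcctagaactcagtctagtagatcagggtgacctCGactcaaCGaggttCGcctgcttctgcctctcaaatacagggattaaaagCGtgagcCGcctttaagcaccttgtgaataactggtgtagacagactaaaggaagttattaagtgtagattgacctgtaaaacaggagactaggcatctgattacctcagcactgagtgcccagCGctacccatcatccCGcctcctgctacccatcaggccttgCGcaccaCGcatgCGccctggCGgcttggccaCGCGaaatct
Slc22a29: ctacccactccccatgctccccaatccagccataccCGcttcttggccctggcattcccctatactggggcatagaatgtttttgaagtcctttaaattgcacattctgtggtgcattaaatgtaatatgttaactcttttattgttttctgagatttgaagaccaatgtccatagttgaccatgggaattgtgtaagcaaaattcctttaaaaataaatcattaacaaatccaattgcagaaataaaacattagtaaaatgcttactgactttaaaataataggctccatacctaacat
Gbp2b: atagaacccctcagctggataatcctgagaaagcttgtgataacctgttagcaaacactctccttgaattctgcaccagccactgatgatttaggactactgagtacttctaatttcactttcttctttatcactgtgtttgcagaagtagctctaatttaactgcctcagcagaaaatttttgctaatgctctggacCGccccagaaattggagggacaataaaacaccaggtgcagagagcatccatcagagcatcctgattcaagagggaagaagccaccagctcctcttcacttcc

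Pitx1, a homeobox transcription factor of hindlimb and pituitary, had 10.9, 14.8 and 11.7 CPM in KO libraries, against 0.0592, 0 and 0 CPM in WT libraries. With 592 counts against 1, its ratio was 637 with a 95% counting interval of 114 to 25200. Among called genes above 5 CPM whose groups did not overlap, it was followed by Evc (4.16, 5.47 and 6.30 CPM in KO libraries, against 0.237, 0.129 and 0.0522 CPM in WT libraries, log2 5.22), Lyz1, the Paneth cell lysozyme, which is near-identical to Lyz2 (7.49, 8.87 and 6.96 CPM in KO libraries, against 0.533, 0.0644 and 0.470 CPM in WT libraries, log2 4.37), and Pxdn, the peroxidase that cross-links collagen IV (log2 4.13). Evc2 (log2 4.08), the cytokine Csf3 (log2 3.93), the BMP-binding matrix protein Smoc1 (log2 3.58) and the uncharacterised AI467606 (log2 3.16) completed the 10 highest with Hunk and Slc22a29.

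Evc and Evc2 are a head-to-head pair on chromosome 5 and encode partner proteins at the base of the primary cilium, where they act in Hedgehog signalling. Their annotated starts lie 1597 bases apart, and both rose (log2 fold change 5.22, SE 0.36, adjusted p = 3.96e-25 for Evc, and log2 fold change 4.08, SE 0.20, adjusted p = 1.33e-36 for Evc2). These SEs come from the F-test and can be smaller than counting error for genes with so few WT counts. Evc2 had 11.3, 14.1 and 12.5 CPM in KO libraries, against 0.888, 0.387 and 0.887 CPM in WT libraries, and all 3 KO libraries lay above all 3 WT libraries for both genes. Their promoter windows (chr5:37336832-37337131, minus strand, and chr5:37338228-37338527, plus strand) are printed in the same way, with 16 and 19 CG in capitals.
Evc: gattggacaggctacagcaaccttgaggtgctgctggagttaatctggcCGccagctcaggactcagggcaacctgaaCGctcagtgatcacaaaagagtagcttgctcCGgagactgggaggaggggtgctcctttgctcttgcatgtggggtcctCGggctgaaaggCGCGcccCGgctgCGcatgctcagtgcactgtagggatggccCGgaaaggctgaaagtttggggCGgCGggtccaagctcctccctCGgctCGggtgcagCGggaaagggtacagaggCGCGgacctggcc
Evc2: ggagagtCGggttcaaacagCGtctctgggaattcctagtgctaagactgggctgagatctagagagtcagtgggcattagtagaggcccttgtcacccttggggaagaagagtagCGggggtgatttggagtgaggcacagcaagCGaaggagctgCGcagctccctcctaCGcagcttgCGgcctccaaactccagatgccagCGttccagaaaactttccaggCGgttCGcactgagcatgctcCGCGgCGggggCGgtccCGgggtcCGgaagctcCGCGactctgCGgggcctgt

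The 10 lowest by the same rule were led by the coagulation factor F5, with 3 counts in the KO and 295 in the WT libraries and a ratio of 91.4 (95% counting interval 31.0 to 446, WT over KO). Tfap2a, a transcription factor of surface ectoderm, had 0.0640, 0 and 0.164 CPM in KO libraries, against 5.74, 5.48 and 6.00 CPM in WT libraries (log2 -5.99). Rec8, the meiotic cohesin subunit, had 0.512, 0.923 and 1.37 CPM in KO libraries, against 19.2, 21.1 and 17.8 CPM in WT libraries (log2 fold change -4.32, SE 0.17, adjusted p = 1.46e-43). The ectonucleotidase Enpp3 had 11.1, 13.1 and 11.6 CPM in KO libraries, against 124, 124 and 119 CPM in WT libraries (log2 fold change -3.36, SE 0.059, adjusted p = 1.25e-76), and Lypd8, an epithelial protein that holds flagellated bacteria off the mucosa, had 9.15, 8.16 and 7.73 CPM in KO libraries, against 76.0, 69.2 and 71.9 CPM in WT libraries (log2 fold change -3.12, SE 0.073, adjusted p = 1.48e-64). The prostaglandin transporter Slco2a1 (log2 -3.33) and Fhl1 (log2 -3.10) also fell. The proliferin genes Prl2c3 and Prl2c2 (log2 -4.0 and -3.88), which are near-identical to each other, and the ribosomal protein gene Rpl29 (log2 -3.32), which has processed pseudogenes, complete the 10 and are uncertain where reads were split between copies.

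The gastric surface lineage was lower in KO. All 12 pit cell genes were tested and all 12 fell, 7 of them by 2-fold or more, with a median log2 fold change of -1.19. Their summed level was 5002 to 5201 CPM in KO libraries and 10791 to 11028 CPM in WT libraries. In bulk RNA, fewer cells of a type and less RNA per cell cannot be told apart. The trefoil peptide Tff1, secreted with surface mucus, had 1161, 1084 and 1029.9 CPM in KO libraries, against 2833, 2699.6 and 2840.3 CPM in WT libraries (log2 fold change -1.35, SE 0.053, adjusted p = 1.71e-05). Sult1c2, a sulfotransferase, had 513, 521 and 514 CPM in KO libraries, against 989.9, 953 and 987 CPM in WT libraries (log2 fold change -0.92, SE 0.021, adjusted p = 4.31e-65), and Psca, a surface antigen of pit cells, had 109, 101 and 98.8 CPM in KO libraries, against 252, 265 and 252 CPM in WT libraries (log2 fold change -1.32, SE 0.034, adjusted p = 3.05e-60). Muc5ac, the main surface mucin, fell by less (187 ± 12.1 CPM in KO and 279 ± 2.98 CPM in WT libraries, SD, n = 3 each, log2 -0.57), and Muc1 was nearest to no change (log2 -0.21). No library of one genotype overlapped the other for any of these 5 genes, which does not set them apart, as the share over all genes is not given.

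Gastrokines Gkn1 and Gkn2, secreted by pit cells, lie near each other on chromosome 6. Gkn1 had 366, 349 and 331 CPM in KO libraries, against 1383, 1340.2 and 1327 CPM in WT libraries and Gkn2 had 564, 566 and 524 CPM in KO libraries, against 1909, 1813 and 1854 CPM in WT libraries, and every KO library lay below every WT library for both (log2 -1.95 and -1.75). Gata6, a GATA-binding factor of gastric epithelium, had 21.8, 20.6 and 23.8 CPM in KO libraries, against 48.4, 44.2 and 44.1 CPM in WT libraries and fell too (log2 fold change -1.04, SE 0.067, adjusted p = 4.14e-27), while Gata4 did not pass (log2 -0.02, adjusted p = 0.65). The letters GATAAG, searched on both strands (CTTATC on the other), stand in the promoter windows of both gastrokine genes and are in capitals below, 2 times in Gkn1 (chr6:87350866-87351165, minus strand) and 1 time in Gkn2 (chr6:87373115-87373414, plus strand). They stand in 7.4% of all windows, and in 2 of the 8 pit cell genes that have a window. A match is a description of the letters and not a site of binding.
Gkn1: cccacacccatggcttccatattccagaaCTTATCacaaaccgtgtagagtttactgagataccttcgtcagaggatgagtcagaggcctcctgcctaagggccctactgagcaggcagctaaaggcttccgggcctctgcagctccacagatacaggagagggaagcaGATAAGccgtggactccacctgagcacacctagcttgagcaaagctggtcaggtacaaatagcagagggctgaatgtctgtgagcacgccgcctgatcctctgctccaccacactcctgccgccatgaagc
Gkn2: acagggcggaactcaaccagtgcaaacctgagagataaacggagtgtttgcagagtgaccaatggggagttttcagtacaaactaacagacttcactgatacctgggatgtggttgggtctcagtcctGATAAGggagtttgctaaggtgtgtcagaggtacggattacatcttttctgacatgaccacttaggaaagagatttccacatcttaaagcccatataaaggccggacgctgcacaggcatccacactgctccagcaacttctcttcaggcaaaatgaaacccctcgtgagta

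Mucous neck and SPEM genes, which mark neck cells and the metaplastic state that expresses neck markers, moved both ways. Of 11 tested, 4 rose and 7 fell, with a median of -0.45. Aqp5, a water channel of antral and metaplastic glands, had 54.5, 50.4 and 49.8 CPM in KO libraries, against 7.46, 6.77 and 7.15 CPM in WT libraries (log2 fold change 2.85, SE 0.083, adjusted p = 4.06e-56). Clu, the secreted chaperone clusterin and one of the most abundant transcripts, had 8266, 8042 and 8181 CPM in KO libraries, against 14014, 14202 and 13940.4 CPM in WT libraries (log2 fold change -0.78, SE 0.014, adjusted p = 1.43e-75). Sox9, a progenitor transcription factor, had 26.9, 27.5 and 27.2 CPM in KO libraries, against 70.2, 69.7 and 70.0 CPM in WT libraries (log2 fold change -1.36, SE 0.056, adjusted p = 1.79e-42), and the gastrokine Gkn3 fell, averaging 65.0 ± 0.697 CPM in KO and 161 ± 2.80 CPM in WT libraries (SD, n = 3 each). Cd44 and Tff2 rose (log2 0.39 and 0.49).

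Of 12 genes of stem and isthmus cells, 7 rose and 2 fell, with a median of 0.30. Lgr5, the Wnt-responsive receptor of stem and some chief cells, had 39.4, 43.9 and 42.3 CPM in KO libraries, against 13.7, 11.3 and 11.8 CPM in WT libraries (log2 fold change 1.77, SE 0.079, adjusted p = 1.87e-39). Tnfrsf19 (Troy), another marker of chief cells with stem potential, had 8.96, 7.88 and 10.1 CPM in KO libraries, against 1.78, 2.19 and 3.81 CPM in WT libraries (log2 fold change 1.77, SE 0.17, adjusted p = 3.66e-15). Iqgap3, a marker of cycling isthmus cells, rose (log2 0.76), and Lgr4 and Prom1 fell (log2 -0.48 and -0.31). Sox2, Sox4 and Runx1 did not pass (log2 -0.02, 0.07 and 0.04).

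Markers of the acid- and enzyme-secreting cells were mostly scarce or lower. Of the 9 chief cell genes 4 were tested; the pepsinogen Pgc and the secretory GTPase Rab3d fell (log2 -0.37 and -0.53) and Xbp1, a secretory transcription factor, rose (log2 0.27), while Cblif, Pga5 and Lipf were not expressed enough to test. Of 6 tested parietal cell genes 4 fell and 0 rose, led by carbonic anhydrase Car2 (454, 441 and 436 CPM in KO libraries, against 922, 925 and 929 CPM in WT libraries, log2 fold change -1.06, SE 0.022, adjusted p = 3.36e-70) and the exchanger Slc9a4 (log2 -0.91). The proton pump subunit Atp4a had 1.54, 1.63 and 1.48 CPM in KO libraries, against 1.84, 2.06 and 1.72 CPM in WT libraries and did not pass (log2 -0.27, adjusted p = 0.44). Clic6 did not pass either (log2 0.47, adjusted p = 0.268). Atp4b, Kcne2, Slc26a7 and Esrrg were not expressed enough to test, so the lower genes may not report parietal cells. The tuft cell gene Avil fell and Ptgs1 rose (log2 -0.71 and 1.19), and Ghrl, ghrelin, was the one enteroendocrine gene tested (log2 -1.19, adjusted p = 0.0291). The Ghrl call was lost without KO replicate 2, KO replicate 3 or WT replicate 2 (adjusted p = 0.0896 to 0.128), in DESeq2 (adjusted p = 0.0868), without the filter on low counts (adjusted p = 0.0749) and with all 21 libraries (adjusted p = 0.0712). Of 8 intestinal genes tested, 4 fell and 1 rose, among them Cdx2, the intestinal homeobox factor, with 0.0640, 0.213 and 0.0548 CPM in KO libraries, against 1.30, 1.03 and 1.20 CPM in WT libraries (log2 fold change -3.41, SE 0.57, adjusted p = 1.93e-07), the lectin Lgals4 (log2 -1.12) and Apoa1 (log2 -1.04). Of 10 squamous genes 3 were expressed enough to test. Sprr1a and Ivl fell (log2 -0.85 and -0.85), and Krt15 did not pass (log2 0.64, adjusted p = 0.235). Krt5, Krt14 and Trp63 were among those not tested.

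All 11 simple epithelial genes were tested, and they summed to 10267 to 10427 CPM in KO and 12408 to 12608 CPM in WT libraries. Of these 4 rose (2 with all 21 libraries in the fit) and 6 fell, the adhesion molecule Epcam not passing (log2 -0.05, adjusted p = 0.0965). With all 21 libraries the falls of Krt18 and Cdh1 were lost too (adjusted p = 0.317 and 0.156). Of the 9 fibroblast and 6 endothelial markers 0 passed the filter on low counts, at summed levels of 0.213 to 0.576 CPM and 0.256 to 0.639 CPM in KO libraries and 0.258 to 0.522 CPM and 0.355 to 0.709 CPM in WT libraries. Of the 9 immune markers Cd68 and Lyz2 were tested and neither passed (adjusted p = 0.114 and 0.846), though Cd68 was called higher without KO replicate 2 and with library totals alone (log2 0.37 and 0.32). The 9 immune markers summed to 8.38 to 11.0 CPM in KO and 7.76 to 8.70 CPM in WT libraries.

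**Figure D3:**
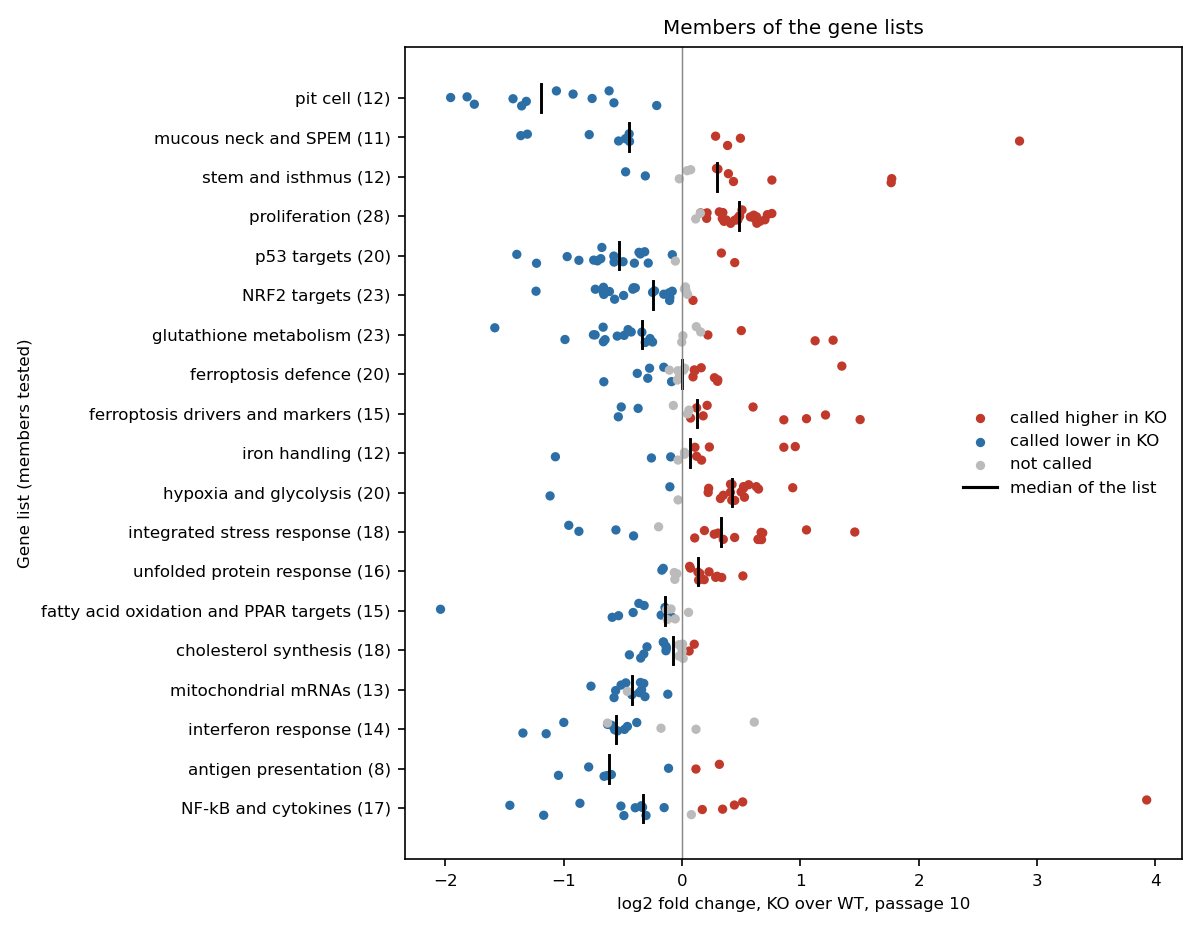
Log2 fold change, KO over WT, of each tested member (dots) of 19 gene lists, with the number tested in parentheses and the median of the list as a black bar; red members were called higher, blue lower and grey not called. All 12 pit cell genes lie below 0, and 26 of 28 proliferation genes are called above it.

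Cell cycle genes were higher in KO. Of 28 proliferation genes tested 26 rose, 0 fell and E2f1 and Ccne2 did not pass, with a median of 0.48 and no member past 2-fold. Top2a, the mitotic topoisomerase, had 791, 808 and 814 CPM in KO libraries, against 515, 515 and 526 CPM in WT libraries (log2 fold change 0.63, SE 0.022, adjusted p = 1.68e-49), and the mitotic cyclin Ccnb1 had 161, 149 and 153 CPM in KO libraries, against 89.2, 93.2 and 90.9 CPM in WT libraries (log2 fold change 0.76, SE 0.037, adjusted p = 5.07e-36). Hmgb2 and Lmnb1, chromatin and lamina genes that decline in senescent cells, rose too (log2 0.66 and 0.73). Cyclin D1 (Ccnd1) fell (log2 -0.28).

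Targets of p53, which arrest the cycle or promote death after damage, were lower. Of 20 tested 17 fell (16 without the 1 on chromosome 19) and 2 rose, with a median of -0.54. Btg2, an antiproliferative co-regulator, had 178, 175 and 173 CPM in KO libraries, against 464, 456 and 463 CPM in WT libraries (log2 fold change -1.40, SE 0.027, adjusted p = 4.06e-73). Ccng1 had 513, 509.8 and 524 CPM in KO libraries, against 828, 830.4 and 832 CPM in WT libraries (log2 fold change -0.69, SE 0.022, adjusted p = 6.4e-53), and the death-domain receptor Eda2r had 45.0, 42.5 and 45.0 CPM in KO libraries, against 103, 107 and 102 CPM in WT libraries (log2 fold change -1.23, SE 0.047, adjusted p = 1.13e-45). Trp53inp1, Zmat3, Sesn2 and Mdm2 fell (log2 -0.97, -0.75, -0.87 and -0.36). The CDK inhibitor Cdkn1a (p21) had 65.3, 70.9 and 71.1 CPM in KO libraries, against 112, 112 and 108 CPM in WT libraries (log2 fold change -0.68, SE 0.043, adjusted p = 4.55e-28), and Cdkn2a, the Ink4a/Arf locus, fell as well (log2 -0.90). Plk2 and Sesn1 were the members that rose (log2 0.33 and 0.45).

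The antioxidant programme of NRF2, the transcription factor that cells use against oxidants and electrophiles, was lower rather than higher. Of 23 tested targets 18 fell and 1 rose (4 with library totals alone), with a median of -0.25. With library totals alone the falls of Tkt, Taldo1 and Abcc1 were lost (adjusted p = 0.0722, 0.203 and 0.554). With all 21 libraries in the fit these falls and that of Pgd were lost (adjusted p = 0.0595 for Pgd to 0.44 for Taldo1). Nqo1, the quinone reductase, had 18.3, 18.7 and 14.9 CPM in KO libraries, against 39.8, 38.6 and 42.5 CPM in WT libraries (log2 fold change -1.23, SE 0.075, adjusted p = 1.03e-28). Gclc, the catalytic subunit of the enzyme that limits glutathione synthesis, had 476, 487 and 476 CPM in KO libraries, against 768, 757 and 747 CPM in WT libraries (log2 fold change -0.66, SE 0.022, adjusted p = 1.55e-50), and Ugdh, which makes UDP-glucuronate, had 798, 789.6 and 807 CPM in KO libraries, against 1249, 1272 and 1270.4 CPM in WT libraries (log2 fold change -0.66, SE 0.020, adjusted p = 4.66e-55). Aldh3a1, Cbr3, Ephx1 and Srxn1 fell (log2 -0.61, -0.73, -0.57 and -0.42). Nfe2l2, which encodes NRF2, fell as well (log2 -0.27, adjusted p = 4.53e-21). Slc7a11, the cystine importer, was the member called higher, by a margin of log2 0.09 (adjusted p = 0.000665). Hmox1, Txnrd1, G6pdx and Prdx1 did not pass (log2 0.05, 0.03, 0.03 and 0.02).

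Genes of glutathione use were mostly lower. Of 23 tested genes of glutathione metabolism 15 fell and 4 rose, with a median of -0.34; without the 3 on chromosome 19 14 fell and 3 rose. Gsto1, an omega-class transferase and among the most abundant transcripts, is on chromosome 19 and still fell, with 5062, 4989.8 and 4874 CPM in KO libraries, against 7869.5, 7985 and 7793 CPM in WT libraries (log2 fold change -0.66, SE 0.015, adjusted p = 2.05e-65). Alpha-class Gsta4, which conjugates the lipid peroxidation product 4-hydroxynonenal, had 1921, 1894 and 1796 CPM in KO libraries, against 2994, 2972 and 2934 CPM in WT libraries (log2 fold change -0.67, SE 0.018, adjusted p = 9.08e-52). Gstk1, Mgst3 and Mgst1 fell (log2 -1.58, -0.73 and -0.49), as did Gsta1 and Gsta2 (log2 -0.75 and -0.99), which are near-identical to each other. Gstm2 had 24.1, 23.2 and 21.0 CPM in KO libraries, against 10.2, 8.57 and 9.34 CPM in WT libraries and rose (log2 fold change 1.28, SE 0.098, adjusted p = 4.04e-22), as did Anpep and, on chromosome 19, Gstp1 (log2 1.12 and 0.50).

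Within the glutathione peroxidase family the members parted. Gpx8, an endoplasmic reticulum member, had 9.34, 9.87 and 9.04 CPM in KO libraries, against 1.36, 1.80 and 1.62 CPM in WT libraries (log2 fold change 2.56, SE 0.18, adjusted p = 4.25e-25). Gpx2, the gastrointestinal form, had 553, 541 and 543 CPM in KO libraries, against 811, 820.1 and 786 CPM in WT libraries (log2 fold change -0.56, SE 0.022, adjusted p = 6.81e-45), and the secreted Gpx3 had 0.640, 0.426 and 0.603 CPM in KO libraries, against 2.60, 1.93 and 1.51 CPM in WT libraries (log2 fold change -1.82, SE 0.36, adjusted p = 5.76e-06). Gpx1, the cytosolic form, and Gpx7 did not pass (log2 0.06 and -0.27, adjusted p = 0.277 and 0.324). Of 16 other selenoproteins 4 rose and 5 fell, but 2 were called lower without KO replicate 3, 3 without WT replicate 1 and 1 with all 21 libraries. Both counts as fitted were close to the shares over all genes (27.0% higher and 27.1% lower), so they are no result about this set. Selenop, the secreted selenium carrier, had 137, 126 and 129 CPM in KO libraries, against 237, 236 and 241 CPM in WT libraries (log2 fold change -0.86, SE 0.032, adjusted p = 9.92e-47), and Selenom and Selenoh rose (log2 1.27 and 0.53). The selenium uptake receptor Lrp8 rose (log2 0.34).

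The genes that defend against ferroptosis, Gpx4 among them, gave no common direction. Of 20 tested 8 rose and 6 fell (median -0.004), and without the 4 on chromosome 19 5 rose and 6 fell. The number that fell was close to the share over all genes (27.1%). With all 21 libraries in the fit 3 of the 20 were called higher, and the falls of Gpx4 and Mboat1 were lost (adjusted p = 0.094 and 0.0613). Mboat2, the acyltransferase that puts monounsaturated chains into phosphatidylethanolamine, had 26.0, 23.7 and 24.4 CPM in KO libraries, against 10.8, 9.28 and 9.03 CPM in WT libraries (log2 fold change 1.35, SE 0.096, adjusted p = 1.83e-24). The stearoyl desaturase Scd2 rose (log2 0.30), close to the median of its chromosome, 19, and Scd1, also there, did not pass (log2 -0.02). Gch1 and Dhodh, of the biopterin and ubiquinone routes, rose slightly (log2 0.16 and 0.27), while Aifm2 (FSP1), the ubiquinone reductase, did not pass (log2 -0.11, adjusted p = 0.514). Gss, the second enzyme of glutathione synthesis, fell (log2 -0.38).

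Of 15 tested drivers and markers of ferroptosis 9 rose and 3 fell, with a median of 0.12, and 7 rose and 3 fell without the 2 on chromosome 19. Tfrc, the transferrin receptor, had 314, 317 and 329.9 CPM in KO libraries, against 177, 170.3 and 182 CPM in WT libraries (log2 fold change 0.86, SE 0.029, adjusted p = 2.9e-50). Ptgs2, the inducible cyclooxygenase, had 29.7, 29.2 and 26.7 CPM in KO libraries, against 8.64, 10.1 and 11.3 CPM in WT libraries (log2 fold change 1.51, SE 0.093, adjusted p = 1.02e-28), and Chac1, which degrades glutathione, rose (log2 1.05). Fads1, a desaturase of polyunsaturated fatty acids on chromosome 19, had 73.3, 71.8 and 72.7 CPM in KO libraries, against 30.8, 29.8 and 33.2 CPM in WT libraries (log2 fold change 1.21, SE 0.054, adjusted p = 2.11e-39), well above the chromosome's median, and Fads2 beside it rose by log2 0.60. Acsl4, which activates arachidonate for membrane lipids, rose by less (log2 0.21). Far1, which makes fatty alcohols for ether lipids, fell, averaging 618 ± 2.33 CPM in KO and 897 ± 10.1 CPM in WT libraries (SD, n = 3 each, log2 -0.54), and Ncoa4, the ferritin autophagy receptor, fell as well (log2 -0.51). In iron handling 6 of 12 tested genes rose and 3 fell, and 5 rose without the 1 on chromosome 19. The number that fell was close to the share over all genes (27.1%). Transferrin (Trf) rose (log2 0.96), the ferric reductase Cybrd1 had 92.7, 99.9 and 105 CPM in KO libraries, against 209, 211 and 207 CPM in WT libraries (log2 fold change -1.07, SE 0.035, adjusted p = 2.81e-50), and the ferritin chains Fth1 (log2 0.11, chromosome 19) and Ftl1 (log2 0.02) and the exporter Slc40a1 (log2 -0.03) had small differences, Fth1 alone of these 3 being called.

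**Figure D4:**
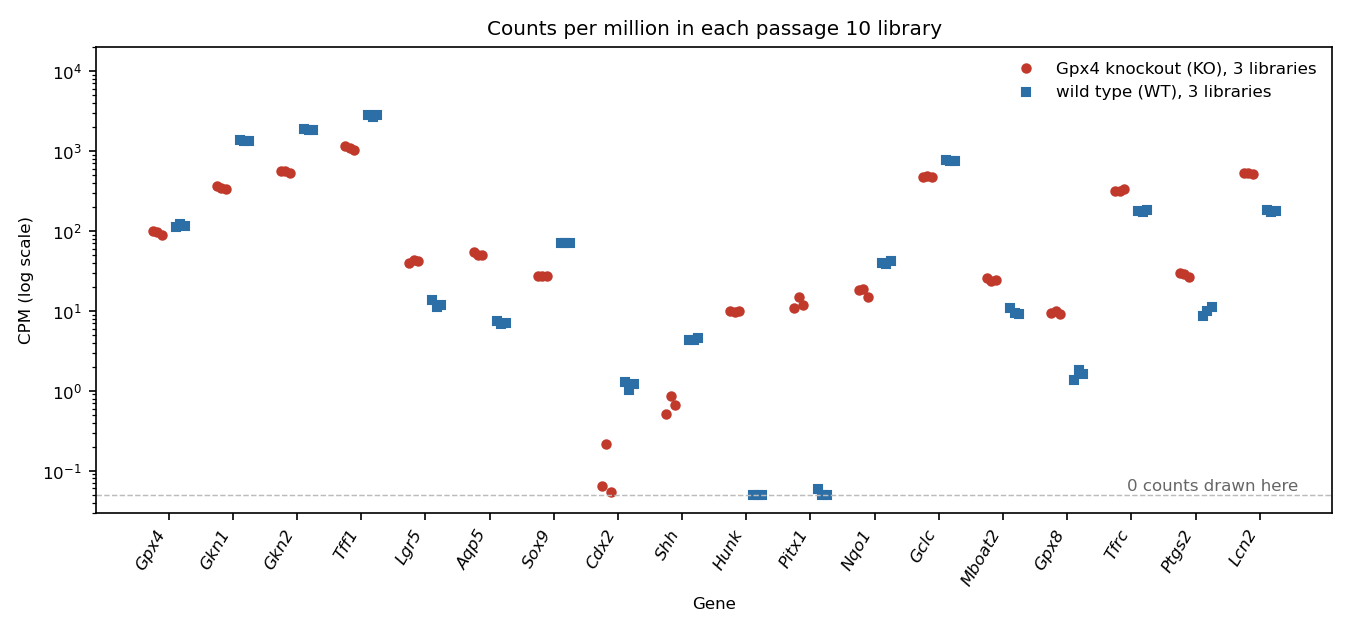
CPM (y axis, log scale) of 18 genes in each of the 3 KO libraries (red circles, left) and 3 WT libraries (blue squares, right) at passage 10, with 0 counts drawn at the dashed line. The genotypes do not overlap for any of these genes, which were chosen for display. The share of all tested genes without overlap is not given, and 54.1%, a different measure, were called.

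Glycolytic genes rose together. Of 20 tested genes of hypoxia and glycolysis 17 rose and 2 fell (1 fell without KO replicate 2 or 3 or WT replicate 2), with a median of 0.42. Enolase Eno1 had 1486, 1471 and 1469.7 CPM in KO libraries, against 966, 941 and 956 CPM in WT libraries (log2 fold change 0.63, SE 0.019, adjusted p = 3.1e-54), and Pgk1 had 1639.9, 1600.2 and 1626 CPM in KO libraries, against 1145, 1157 and 1139 CPM in WT libraries (log2 fold change 0.50, SE 0.019, adjusted p = 2.62e-46). Bnip3, a mitophagy receptor, had 171, 168 and 169.6 CPM in KO libraries, against 88.9, 87.3 and 89.5 CPM in WT libraries (log2 fold change 0.94, SE 0.036, adjusted p = 6.88e-45), and Ldha and Pkm rose (log2 0.42 and 0.35). The hypoxia-responsive Ankrd37 went the other way, with 11.1, 8.16 and 9.26 CPM in KO libraries, against 19.5, 21.8 and 20.6 CPM in WT libraries (log2 fold change -1.11, SE 0.10, adjusted p = 7.23e-18).

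Genes of the integrated stress response, whose factor is ATF4, were mostly higher, with 13 of 18 tested genes up and 4 down (median 0.33). Without the 2 on chromosome 19, 11 were up. The list holds amino acid genes and stress effectors, which were not counted apart. The serine synthesis genes Phgdh (175, 173 and 173 CPM in KO libraries, against 111, 107 and 109 CPM in WT libraries, log2 fold change 0.67, SE 0.035, adjusted p = 1.42e-34) and Psat1 (log2 0.67, chromosome 19) rose, with the one-carbon enzymes Shmt2 and Mthfd2 (log2 0.68 and 0.64) and the pseudokinase Trib3 (log2 1.46). The stress effectors Ddit4, Sesn2 and Nupr1 of the same list fell (log2 -0.96, -0.87 and -0.56). Chaperones of the endoplasmic reticulum rose modestly, with 11 of 16 genes of the unfolded protein response up and 2 down. With all 21 libraries in the fit, 6 of these 16 were called up and 1 down. Hspa5 (BiP) had 1706, 1696 and 1741 CPM in KO libraries, against 1402, 1386 and 1397 CPM in WT libraries (log2 fold change 0.30, SE 0.018, adjusted p = 9.45e-29), and Manf had 214 ± 11.3 CPM in KO and 149 ± 2.87 CPM in WT libraries (SD, n = 3 each).

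In fatty acid oxidation 10 of 15 tested genes fell and 0 rose, with a median of -0.14. On log2(FPKM + 1), limma called 6 lower. Ehhadh, a peroxisomal oxidation enzyme, had 6.72, 5.61 and 5.43 CPM in KO libraries, against 24.1, 23.6 and 25.2 CPM in WT libraries (log2 fold change -2.04, SE 0.11, adjusted p = 5.53e-34). In cholesterol synthesis 9 of 18 fell, with a median of -0.08, and 2 were called higher, against 0 without WT replicate 2 and 5 with library totals alone. Elovl6, a fatty acid elongase, rose (log2 0.51). Of the 13 mRNAs of the mitochondrial genome 12 fell and 0 rose (median -0.42), with mt-Cytb at 6442, 6401 and 6209.8 CPM in KO libraries, against 9406, 9267 and 9425 CPM in WT libraries (log2 fold change -0.56, SE 0.015, adjusted p = 1.23e-59). The mitochondrial ribosomal RNA mt-Rnr2 went the other way (1389, 1391 and 1393 CPM in KO libraries, against 749, 755 and 781 CPM in WT libraries, log2 0.87). The nuclear OXPHOS subunits had 10 of 20 called higher and 0 lower (median 0.08), 8 of them off chromosome 19, with Ndufa4 highest (log2 0.78). With all 21 libraries in the fit 5 of the 20 were called higher, and without WT replicate 3 another 1 was called lower.

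Most of the interferon and antigen presentation genes that could be tested were lower. Of 14 tested interferon-responsive genes 10 fell and 0 rose, with a median of -0.56. Isg15, Ifit1, Ifit3, Rsad2 and Mx2 of the same list were not expressed enough to test, with at most 36 counts each over the 6 libraries. Irf1 had 45.6, 47.8 and 44.6 CPM in KO libraries, against 70.8, 71.8 and 65.8 CPM in WT libraries (log2 fold change -0.59, SE 0.051, adjusted p = 2.31e-19), and Gbp2 and Oasl2 fell (log2 -1.34 and -1.0). Of 8 antigen presentation genes tested 6 fell and 2 rose (median -0.61). Nlrc5, Ciita, Cd74, H2-Aa, H2-Ab1 and H2-Eb1 were not expressed enough to test. Tapbp, the peptide loading factor tapasin, had 133, 136 and 139 CPM in KO libraries, against 212, 213 and 209 CPM in WT libraries (log2 fold change -0.63, SE 0.032, adjusted p = 2.37e-35), and the immunoproteasome subunits Psmb8 and Psmb9 fell (log2 -1.04 and -0.79), while H2-K1 and B2m rose (log2 0.32 and 0.12). H2-K1 and H2-D1 (log2 -0.11) are near-identical copies and uncertain.

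NF-kB targets and cytokines had 11 of 17 tested members lower and 5 higher (4 higher without the 1 on chromosome 19), with a median of -0.33. The number higher was close to the share over all genes (27.0%). The epithelial cytokine Il18 had 22.8, 22.6 and 22.0 CPM in KO libraries, against 65.7, 58.8 and 59.9 CPM in WT libraries (log2 fold change -1.45, SE 0.062, adjusted p = 2.17e-41), the neutrophil chemokine Cxcl1 had 51.3, 54.4 and 48.2 CPM in KO libraries, against 89.2, 93.6 and 95.9 CPM in WT libraries (log2 fold change -0.86, SE 0.047, adjusted p = 1.75e-32), and Tnf and Nfkbia fell (log2 -0.52 and -0.49). Against these, Csf3, the granulocyte growth factor, had 5.50, 5.39 and 5.32 CPM in KO libraries, against 0.414, 0.129 and 0.470 CPM in WT libraries (log2 fold change 3.93, SE 0.30, adjusted p = 9.99e-23), and Icam1 rose (log2 0.51). Among secreted defence proteins Lcn2, the siderophore-binding lipocalin, had 534, 531 and 512 CPM in KO libraries, against 182, 173 and 177 CPM in WT libraries (log2 fold change 1.57, SE 0.027, adjusted p = 3.05e-78) and Slpi rose (log2 2.42). Pigr, the immunoglobulin transporter, and Duox2, the epithelial peroxide generator, fell. Pigr averaged 4626 ± 36.6 CPM in KO and 6779 ± 16.0 CPM in WT libraries, and Duox2 averaged 1734 ± 35.9 CPM in KO and 2498 ± 32.4 CPM in WT libraries (SD, n = 3 each).

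Among signalling genes, both Hedgehog ligands tested fell. Shh, the ligand of gastric differentiation, had 0.512, 0.852 and 0.658 CPM in KO libraries, against 4.38, 4.32 and 4.54 CPM in WT libraries (log2 fold change -2.71, SE 0.27, adjusted p = 7.92e-16), and Ihh had 5.06, 4.19 and 4.44 CPM in KO libraries, against 12.7, 13.4 and 13.0 CPM in WT libraries (log2 fold change -1.51, SE 0.13, adjusted p = 1.95e-19). The signal transducer Smo rose with 14.3, 15.9 and 16.7 CPM in KO libraries, against 4.44, 6.64 and 5.48 CPM in WT libraries (log2 fold change 1.51, SE 0.12, adjusted p = 1.06e-20). The ERBB ligand Nrg1 had 9.47, 8.66 and 10.5 CPM in KO libraries, against 3.32, 3.42 and 3.34 CPM in WT libraries (log2 fold change 1.51, SE 0.15, adjusted p = 5.86e-16), while Btc, Areg, Egfr and Erbb2 fell (log2 -0.58, -0.23, -0.22 and -0.25). The Notch effector Hes1 fell and the ligand Dll1 rose (log2 -0.75 and 1.26). The BMP target Id2 and the ligand Bmp2 fell (log2 -0.25 and -0.51), 5 of 8 tested BMP genes in all (3 without KO replicate 3) with 0 higher. The YAP targets Ccn1 and Ccn2 rose (log2 0.83 and 0.74), Ccn1 being the highest member of its list. Of the 14 genes tested in that list, 7 were called higher, 2 lower and 5 not (median 0.17). Without the 3 on chromosome 19, 5 were higher and 2 lower, and the median was 0.03. The list as a whole therefore showed little shift off that chromosome. The Wnt target Axin2 did not pass (log2 -0.17, adjusted p = 0.166).

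Junction and matrix genes moved both ways. The tight junction gene Cldn3 had 17.4, 16.4 and 15.7 CPM in KO libraries, against 2.60, 1.87 and 1.83 CPM in WT libraries (log2 fold change 2.97, SE 0.14, adjusted p = 2.28e-36), Cldn2 and Cldn4 rose (log2 0.80 and 0.87), and the gastric claudin Cldn18 fell (log2 -0.24). Collagen IV chains rose, with Col4a2 at 5.89, 5.47 and 7.12 CPM in KO libraries, against 1.07, 1.61 and 1.62 CPM in WT libraries (log2 fold change 2.11, SE 0.21, adjusted p = 4.8e-16) and Col4a1 and Col4a6 at log2 1.98 and 2.45, while Col4a5 fell (log2 -0.60). The 11 mesenchymal transition genes summed to 12.2 to 15.6 CPM in KO and 3.18 to 6.19 CPM in WT libraries. Cdh2, Snai1, Snai2, Zeb1, Zeb2, Twist1, Mmp14 and Tgfbi were not expressed enough to test. The 3 tested, Fn1, Mmp7 and Vim, rose from low levels (log2 1.81, 2.50 and 1.58). Fn1 had 9.26 ± 1.87 CPM in KO and 2.72 ± 1.18 CPM in WT libraries (SD, n = 3 each). Genes this low in WT can pass the filter through the KO libraries alone, so the shared direction is no result about the list. The other mucins parted from one another. Muc4 rose (log2 0.59), while Muc13 and Muc16 fell (log2 -2.21 and -2.58). In the aryl hydrocarbon receptor list 3 of 6 tested genes rose and 2 fell, with a median of 0.10. Nqo1, given above among the NRF2 targets, was its lowest member (log2 -1.23). Cyp1a1, the prototypical target of the receptor, had 75 counts in KO and 1 in WT libraries, a ratio of 80.7 (95% counting interval 14.0 to 3230). Its relative Cyp1b1 had 9.34, 9.09 and 6.74 CPM in KO libraries, against 1.95, 1.80 and 2.77 CPM in WT libraries (log2 fold change 1.91, SE 0.18, adjusted p = 1.56e-17), whereas Tiparp, another target, fell (log2 -0.53).

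The largest shifts in absolute level included ribosomal and secretory transcripts. Rpsa, a ribosomal protein gene with many processed pseudogenes, had 1649.8, 1572 and 1575 CPM in KO libraries, against 692, 699 and 681 CPM in WT libraries (log2 fold change 1.21, SE 0.020, adjusted p = 3.37e-78), and Npm1 and Ncl, nucleolar proteins of ribosome assembly, rose (log2 0.58 and 0.51). Clca1, a secreted regulator of mucus, had 786, 779 and 770.2 CPM in KO libraries, against 3206, 3199.9 and 3241 CPM in WT libraries (log2 fold change -2.05, SE 0.018, adjusted p = 1.84e-105). The ribosomal RNA annotated as Rn18s-rs5 had 4681, 5917 and 5562 CPM in KO libraries, against 8252, 8176 and 9933 CPM in WT libraries (log2 fold change -0.71, SE 0.13, adjusted p = 0.0109), with an adjusted p of 0.0511 without KO replicate 3.

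The large differences of passage 10 were looked up at passage 5, in libraries that the comparison at passage 10 does not use. The passage 5 calls came from the fit of 12 libraries, which includes those of passage 10. Filter, scaling and estimate of spread were therefore shared between the passages. Of the 956 genes with 2-fold differences 654 were called in the same direction at passage 5, 23 in the opposite direction, 277 were not called and 2 were not tested there. Calls at passage 5 were frequent over all genes, with 3440 higher and 3608 lower of 14524, and of all 7551 genes called at passage 10, 4881 were called in the same direction at passage 5 and 313 in the opposite direction. The difference of the differences, tested over 12 libraries, was called for 2951 of 14524 genes (20.3%), and for 398 at 2-fold or more (2.74%), 198 of them higher and 200 lower at passage 10 than at passage 5. Gpx4 itself was lower at passage 5 (log2 -0.38), and its interaction did not pass (log2 0.09, SE 0.056, adjusted p = 0.306). The labels do not say whether the passages were taken from the same cultures.

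**Figure D5:**
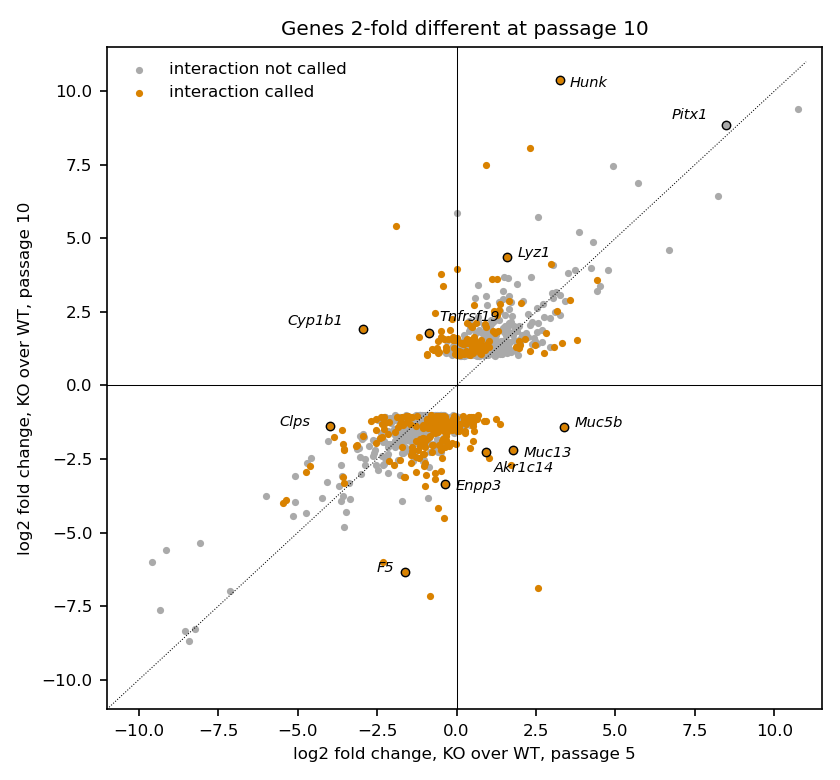
Log2 fold change, KO over WT, at passage 5 (x axis) and passage 10 (y axis) of the genes that differed by 2-fold or more at passage 10, with the dotted line marking equal values and orange marking a called interaction. Muc5b and Muc13 lie in the lower right, higher in KO at passage 5 and lower at passage 10, and Cyp1b1 and Tnfrsf19 lie in the upper left.

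Mucin and progenitor genes were among those whose difference turned round. The mucin Muc5b was higher in KO at passage 5 (log2 3.37) and lower at passage 10, with 9.02, 7.52 and 8.99 CPM in KO libraries, against 23.0, 22.0 and 24.0 CPM in WT libraries (log2 -1.43, interaction -4.80, SE 0.10, adjusted p = 6.75e-106). Muc13 turned likewise (log2 1.77 at passage 5, interaction -3.97, SE 0.29, adjusted p = 2.2e-28), as did the steroid dehydrogenase Akr1c14 (log2 0.91, interaction -3.16, SE 0.17, adjusted p = 4.48e-44). Olfm4, a marker of intestinal stem cells, was higher at passage 5 (log2 2.64) and lower at passage 10 (log2 -0.29, interaction -2.93, SE 0.081, adjusted p = 7.81e-88). In the other direction, Cyp1b1 was lower at passage 5 (log2 -2.95) and higher at passage 10 (interaction 4.87, SE 0.57, adjusted p = 1.69e-13), and so was Tnfrsf19 (log2 -0.88, interaction 2.66, SE 0.26, adjusted p = 3.54e-18). Of the 12 pit cell genes 9 had a called interaction, in both directions. Mucl3, a mucin-like pit cell gene, differed more at passage 10 (log2 -1.82, against -1.15 at passage 5), and Psca and Muc5ac differed less (log2 -2.36 and -1.52 at passage 5). Bhlha15 was higher in KO at passage 5 (log2 0.90, adjusted p = 2.05e-09), and its interaction was called (log2 -1.12, SE 0.20, adjusted p = 7.38e-07).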

How the data were processed

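Total RNA of organoids was sequenced on an Illumina NovaSeq instrument, per the labels. The submitters' processing notes name cutadapt 1.9.1, HISAT2 2.2.1, HTSeq 0.6.1 and the build GRCm38.p5; settings and strand are not given in the sources used here, and most gene coordinates in the table differ from the GRCm38 annotation GENCODE M21, so none was printed. The authors deposited read counts per gene and FPKM values (counts scaled by gene length and library total) for 21 libraries.

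The counts of the 6 libraries were tested in R 4.3.3 with edgeR 4.0.16 (TMM scaling, filterByExpr with a minimum count of 10, quasi-likelihood F-test, Benjamini-Hochberg over 13957 genes, called under 0.05). All 21 libraries were not fitted together in the main test because an earlier analysis gave WT passage 15 a larger spread. The interaction with passage used 12 libraries and 14524 genes. Genes were named by rule: Gpx4 and its neighbours, the 10 highest and 10 lowest protein-coding genes, the largest shifts in level, genes switched on or off, the most significant members of 53 gene lists, and the largest interactions (like the highest and lowest, at 5 CPM or more in 1 or more groups and without overlap at passage 10); further list members were chosen after their values were seen. Members and lists were chosen with earlier results of these data known. Alternatives included DESeq2 1.42.0 and limma 3.58.1 on log2(FPKM + 1). CPM values are scaled; intervals and bounds cover counting error only. Tests were checked on simulated data. Some members of the lists are not reported by name here.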

Additional observations from a re-analysis of the deposited data

Results flagged for a closer look

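The genes below had the largest called interactions of genotype with passage, over 12 libraries, among protein-coding genes that did not overlap between the genotypes at passage 10 and averaged at least 5 CPM in 1 or more of the 4 groups; genes outside these limits, such as Irx2 (log2 -3.27), can have larger ones. Higher at passage 10 than at passage 5 were Hunk (log2 7.11, SE 1.44, adjusted p = 2.55e-05), Cyp1b1 (4.87), Lyz1 (2.77), Tnfrsf19 (2.66), Clps, the pancreatic colipase (2.61), and Ggta1, an alpha-galactosyltransferase (2.16). Clps stayed lower in KO at both passages (log2 -4.0 at passage 5 and -1.39 at passage 10), and Ggta1 was lower at passage 5 (log2 -1.55) and higher at passage 10 (log2 0.61). The value of Hunk depends on the prior count, since WT libraries had 0 counts at passage 10, and is no bound.

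Lower at passage 10 than at passage 5 were Muc5b (log2 -4.80), F5 (-4.74), Muc13 (-3.97), Akr1c14 (-3.16), Enpp3 (-3.0) and Olfm4 (-2.93). F5 and Enpp3 were lower in KO at both passages (log2 -1.61 and -0.36 at passage 5). Each of these 12 interactions was called (adjusted p under 0.05); their causes were not tested.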

How the results depend on the processing

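With all 21 libraries in the fit, calls at passage 10 were 5204, with 2408 higher; interaction calls were 897, with 473 higher and 424 lower; and Gpx4 did not pass (log2 -0.30, adjusted p = 0.094). A test against 1.5-fold (glmTreat) called 968 genes, 368 higher and 600 lower, and not Gpx4 (log2 -0.29, adjusted p = 1). Genes with a mean FPKM of at least 1 gave 462 at 2-fold (157 higher, 305 lower), fewer being tested. On log2(FPKM + 1), which shrinks folds of low genes, limma gave 233 at 2-fold (76 higher, 157 lower), and on log2(FPKM + 0.1) 375 lower at 2-fold. The other planned settings kept each of these counts within 1.5 times, DESeq2 giving 6438 calls.

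Leaving out 1 of the 6 libraries gave 6916 to 7208 calls (3430 to 3613 higher, 3485 to 3611 lower), 1000 to 1040 at 2-fold (388 to 434 higher, 585 to 624 lower) and Gpx4 at log2 -0.33 to -0.23, called each time. Leaving out 1 of 12 gave 2648 to 2881 interaction calls (1416 to 1543 higher, 1220 to 1338 lower), 374 to 397 at 2-fold.

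Replicate numbers did not pair the libraries (correlations of deviations -0.006 to 0.014 for equal numbers), and the replicate block gave 7564 calls and 2959 interaction calls. Leaving out chromosome 19, an alternative added after the data were seen, gave 7160 calls (923 at 2-fold). Of the genes named by rule or in a list and called as fitted, Acly alone lost its sign (log2 -0.06 as fitted, 0.001 by library totals alone, 0 on both log2 FPKM scales). Genes not called were not checked for a change of sign. Depth limits low genes: 1 count was 0.0522 to 0.0710 CPM.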

Other observations

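Of 10 imprinted genes tested 3 were higher and 2 lower in KO, close to or under the shares over all genes (27.0% and 27.1%). Among them were Peg3, a paternally expressed zinc-finger gene, with 15.0, 18.0 and 15.9 CPM in KO libraries, against 7.81, 7.93 and 6.68 CPM in WT libraries (log2 fold change 1.13, SE 0.11, adjusted p = 6.17e-16), and Snrpn, a splicing factor gene, with 9.66, 9.51 and 9.32 CPM in KO libraries, against 4.38, 4.45 and 4.96 CPM in WT libraries (log2 fold change 1.04, SE 0.14, adjusted p = 1.71e-10). Snrpn was lower in KO at passage 5 (log2 -0.94, interaction 1.99, SE 0.22, adjusted p = 5.02e-15). Plagl1, an imprinted growth inhibitor, fell (log2 -0.61). Of the prostaglandin and leukotriene genes, Hpgd, which degrades prostaglandin E2, and Ptgr1 fell (log2 -1.23 and -1.02), while Ptgs1, Ptgs2 and Ptges rose (log2 1.19, 1.51 and 0.38). Pdx1, an antral and duodenal homeobox factor, and Foxa3 fell (log2 -1.03 and -0.72), while Foxa2 rose (log2 0.40). The inducible heat shock gene Hspa1a had 1.66, 1.56 and 1.92 CPM in KO libraries, against 9.53, 8.57 and 8.14 CPM in WT libraries (log2 fold change -2.33, SE 0.18, adjusted p = 2.54e-22); it shares near-identical sequence with Hspa1b (log2 -0.49).

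The Y-linked genes Uty, Kdm5d, Eif2s3y and Ddx3y were expressed in both genotypes (Ddx3y 96.4, 96.1 and 96.1 CPM in KO libraries, against 98.4, 97.7 and 95.2 CPM in WT libraries), and 3 of these 4 were called lower by small margins (log2 -0.31, -0.21 and -0.17), the first 2 calls being lost with all 21 libraries (adjusted p = 0.0536 for Uty and 0.157 for Kdm5d).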
